A study of Mus musculus with 4 samples.

Results

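The genes of glycolysis and of the transcriptional response to low oxygen were followed through 4 mouse retina libraries. They were chosen by symbol from a list of 40 genes, of which 39 were found among the 23278 genes of the deposited table: 16 glycolytic enzymes, 21 genes induced by hypoxia-inducible factor (HIF), and the HIF alpha subunit genes Hif1a and Epas1. The listed symbol Pkm was absent, and the same gene stands in the table under its older symbol Pkm2. The measure was FPKM, which scales the fragments of a gene to transcript length and sequencing depth, in RNA of whole retinas at postnatal day 10. All mice, of a mixed background with at least C57BL6 and 129, were given 4HT (4-hydroxytamoxifen, 20 ug) at postnatal day 3. The first library was labelled WT and the knockout was NdpKO, which lacks Ndp, the gene that encodes Norrin. The stabilized library was Ctnnb1flex3/+;Pdgfb-CreER, in which a tamoxifen-activated recombinase under the endothelial Pdgfb promoter turns 1 allele of the beta-catenin gene into a stabilized form. The stabilized knockout, NdpKO;Ctnnb1flex3/+;Pdgfb-CreER, carried both changes. A library was made from a pool of 3 RNA batches, and a batch held 4 to 8 retinas of 2 to 4 mice. There was 1 library per genotype, so no spread between animals could be measured and no p-value is given. An additive fit of Ndp genotype and stabilization over the 4 libraries, which leaves 1 residual degree of freedom, was not run. The labels do not say that WT or NdpKO mice carried CreER, so recombinase and stabilization cannot be told apart here.

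Glycolysis turns glucose into pyruvate in the cytosol, and lactate dehydrogenase can turn the pyruvate into lactate. The retina is known for making much of its glucose into lactate even with oxygen present, and photoreceptors account for much of this. HIF is a dimer of an alpha and a beta subunit. With oxygen, prolyl hydroxylases mark the alpha subunit for destruction through the von Hippel-Lindau protein. Without oxygen it persists and binds DNA at a short core, ACGTG or GCGTG, near genes of glycolysis, mitochondrial turnover and vessel growth. Norrin, through Frizzled-4 and beta-catenin, drives growth of the deep retinal vessels, and retinas without it are poorly vascularised.

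Levels below are deposited FPKM, in the order WT, knockout, stabilized, stabilized knockout, and brackets hold deposited intervals of unstated level. Differences are log2 ratios of FPKM plus 0.5. A gene was called higher or lower from a log2 ratio of 0.32 either way (25% more or 20% less), and 1.5-fold is used where named. The called share of all genes tested is the background for the counts of called genes, and a share near it says nothing about a list. No such share was counted for intervals apart, or for the library in which a gene was highest or lowest. Those counts describe the listed genes only. Of the 39 genes found, 38 passed a minimum mean of 1 FPKM, as did 13150 genes in all. The deposited FPKM summed to between 405525 and 427109 per library. From the widths of the intervals of low genes, depth was estimated at 0.536, 0.426 and 0.577 of that of WT in the knockout, stabilized and stabilized knockout libraries. Ndp was at 2.98, 0.873, 2.35 and 0.869 FPKM, low in both libraries labelled NdpKO. The knockout pools also had male and the Ndp-intact pools female expression: Xist was at 135 FPKM in WT and 130 in the stabilized library and at no more than 1.28 FPKM in the other two, and Ddx3y was at 0.0896, 18.7, 0.173 and 20.1 FPKM. Ndp genotype and sex therefore cannot be told apart in any comparison of a knockout with an Ndp-intact library. Rod markers, 12 genes, summed to 8320, 9070, 7564 and 8385 FPKM and Muller glia markers, 10 genes, to 750, 821, 706 and 786 FPKM, and none of these was listed at 0. In whole tissue, fewer cells of a type and less RNA per cell cannot be told apart.

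Promoter windows show where the letters of the HIF core lie near the genes described next. RefSeq windows (GRCm38.p6, the mm10 assembly, 250 bases before to 50 after a start) were matched for 36 of the 40 listed genes. For each gene the start nearest the 5′ end of its deposited locus was taken, which need not be the start most used in retina. ACGTG on either strand, counted once where it overlaps itself in CACGTG, was in 20 of 36 windows. It was in 25.8% of the 10186 windows of genes past the filter and in 29.6% of the 4311 of them with at least 24 CG pairs, the median of the listed genes. By role, 13 of 19 HIF-induced genes held it (68.4%) against 6 of 16 glycolytic enzymes (37.5%). The windows of the 2 roles differed in CG content, with medians of 26 and 18 CG pairs, and those of Aldoa and Hk1 held 0 and 1. The split by role was not matched for CG content, so it cannot be read as a difference between the roles. GCGTG on either strand was in 21 of 36 windows (58.3%), against 52.7% of all windows and 67.0% of the CG-rich ones. Genes enter lists of HIF targets in part through such sites, so the share describes the list. The windows below are those of the enzyme with the largest ratio in the knockout against WT (Hk2), of the lactate dehydrogenase gene with 3 ACGTG sites, and of the 4 HIF-induced genes with the lowest ratios in the stabilized library against WT. All but Ak4 were chosen after their values were seen. Capitals mark ACGTG or GCGTG on either strand, counted without overlap, so that only the first of overlapping GCGTG matches is marked, as in Ankrd37 and Higd1a. Letters run 5′ to 3′ on the strand of the gene.
Hk2, chr6:82774405-82774704, minus strand: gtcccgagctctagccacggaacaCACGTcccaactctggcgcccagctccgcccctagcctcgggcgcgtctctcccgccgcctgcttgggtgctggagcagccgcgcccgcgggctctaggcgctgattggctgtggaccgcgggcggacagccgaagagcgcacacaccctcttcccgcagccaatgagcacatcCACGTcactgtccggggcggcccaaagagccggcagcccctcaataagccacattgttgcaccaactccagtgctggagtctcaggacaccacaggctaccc
Ldha, chr7:46845554-46845853, plus strand: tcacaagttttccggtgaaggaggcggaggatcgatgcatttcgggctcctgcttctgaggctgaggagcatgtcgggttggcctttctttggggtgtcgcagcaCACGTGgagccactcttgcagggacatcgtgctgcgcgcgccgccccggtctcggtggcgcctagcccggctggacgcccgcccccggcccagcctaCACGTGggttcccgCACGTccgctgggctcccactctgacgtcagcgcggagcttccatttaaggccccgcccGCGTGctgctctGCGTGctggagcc
Ak4, chr4:101419039-101419338, plus strand: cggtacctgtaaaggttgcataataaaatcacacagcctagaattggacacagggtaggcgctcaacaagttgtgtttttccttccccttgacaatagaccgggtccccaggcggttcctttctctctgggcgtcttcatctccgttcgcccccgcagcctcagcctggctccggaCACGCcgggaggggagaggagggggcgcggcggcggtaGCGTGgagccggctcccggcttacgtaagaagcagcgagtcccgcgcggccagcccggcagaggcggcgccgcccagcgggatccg
Ankrd37, chr8:45999801-46000100, minus strand: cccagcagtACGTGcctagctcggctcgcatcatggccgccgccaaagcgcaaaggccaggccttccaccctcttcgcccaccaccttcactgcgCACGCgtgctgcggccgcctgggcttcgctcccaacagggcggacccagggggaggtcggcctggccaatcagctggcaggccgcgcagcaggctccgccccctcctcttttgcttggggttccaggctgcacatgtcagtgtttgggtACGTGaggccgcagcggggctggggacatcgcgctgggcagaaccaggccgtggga
Higd1a, chr9:121857747-121858046, minus strand: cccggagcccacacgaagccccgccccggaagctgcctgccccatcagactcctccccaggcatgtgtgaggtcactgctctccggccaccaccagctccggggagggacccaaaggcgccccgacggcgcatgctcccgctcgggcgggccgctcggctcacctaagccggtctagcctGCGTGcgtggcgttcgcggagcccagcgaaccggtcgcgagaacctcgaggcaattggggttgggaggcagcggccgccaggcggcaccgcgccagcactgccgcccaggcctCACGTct
P4ha1, chr10:59323046-59323345, plus strand: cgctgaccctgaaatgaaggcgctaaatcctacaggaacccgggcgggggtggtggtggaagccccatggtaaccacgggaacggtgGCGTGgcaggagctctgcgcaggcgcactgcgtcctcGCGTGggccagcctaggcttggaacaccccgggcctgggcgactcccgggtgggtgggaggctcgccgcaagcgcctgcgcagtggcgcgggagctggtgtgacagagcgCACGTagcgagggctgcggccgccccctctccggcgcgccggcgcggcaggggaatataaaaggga
Ldha held 3 ACGTG sites and 2 GCGTG sites, and Hk2 and Ankrd37 2 ACGTG sites each. Ak4 held GCGTG 2 times and no ACGTG. In Hk2 the site nearer the start begins at position -52 and in Ldha at -34, with the start as 0. Higd1a held ACGTG past the start, at 43, and P4ha1 just before it, at -16. A match is a string of letters and not evidence of binding.

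The enzymes are described along the pathway. Hexokinase, which traps glucose in the cell, was mainly Hk1 (chromosome 10, 62268855 to 62379908), at 74.0, 95.2, 92.8 and 98.0 FPKM. Hk2 (chromosome 6, 82725025 to 82774454) was at 3.50 (2.85 to 4.14), 5.75 (4.82 to 6.67), 4.16 (3.42 to 4.90) and 5.10 (4.25 to 5.95) FPKM. WT was lowest for each, and the level of Hk1 was between 16.6 times that of Hk2 in the knockout and 22.3 times in the stabilized library. The isomerase Gpi1 was at 134 (116 to 153), 173 (149 to 198), 163 (140 to 186) and 193 (165 to 222) FPKM, again lowest in WT and highest in the stabilized knockout. Of the phosphofructokinases, which catalyse the committed step, Pfkl was at 48.3, 56.7, 48.8 and 53.6 FPKM. Pfkp was at 46.8, 55.5, 49.7 and 54.7 FPKM. Pfkm, the muscle type, was at 25.6, 30.1, 30.3 and 32.4 FPKM. Pfkl and Pfkp were higher in both knockouts than in both Ndp-intact libraries, and Pfkm was at about the same level in the knockout and the stabilized library.

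Aldolase splits the sugar, and Aldoa, at 478, 557, 471 and 549 FPKM, exceeded the neural form Aldoc, at 60.9, 69.4, 62.2 and 73.1 FPKM. Tpi1, which interconverts the products, was at 281, 293, 224 and 260 FPKM. Gapdh, which carries out the oxidation, had the highest level of the listed genes in each library, at 1231 (972 to 1489), 1348 (1060 to 1637), 1226 (974 to 1477) and 1443 (1122 to 1764) FPKM. The order of Aldoa, Aldoc and Gapdh put both knockouts above both Ndp-intact libraries, with overlapping intervals. Pgk1 (X chromosome, 106187100 to 106203699), which makes the first ATP of the pathway, was at 283, 299, 228 and 265 FPKM. Pgam1, the next enzyme, was at 307, 339, 276 and 313 FPKM. Both shared with Tpi1 a lowest value in the stabilized library and a highest in the knockout. Eno1 was at 448, 509, 460 and 528 FPKM and Eno2, the neuronal enolase, at 88.8, 103, 95.5 and 98.8 FPKM. Pyruvate kinase, under Pkm2, was at 515 (404 to 626), 617 (485 to 750), 597 (471 to 724) and 663 (507 to 820) FPKM, lowest in WT. Ldha (chromosome 7, 46841475 to 46855627), the muscle type of lactate dehydrogenase, was at 769 (622 to 916), 862 (688 to 1037), 675 (552 to 797) and 763 (614 to 913) FPKM. Ldhb, the heart type, was at 73.9, 72.9, 71.5 and 77.6 FPKM and differed least. The level of Ldha was 10.4, 11.8, 9.43 and 9.84 times that of Ldhb. Hk1, Pfkm, Pfkp and Tpi1 share their deposited locus with another gene, and Gapdh and other abundant enzymes have near-identical pseudogenes, so their values are uncertain to that extent.

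**Figure D1:**
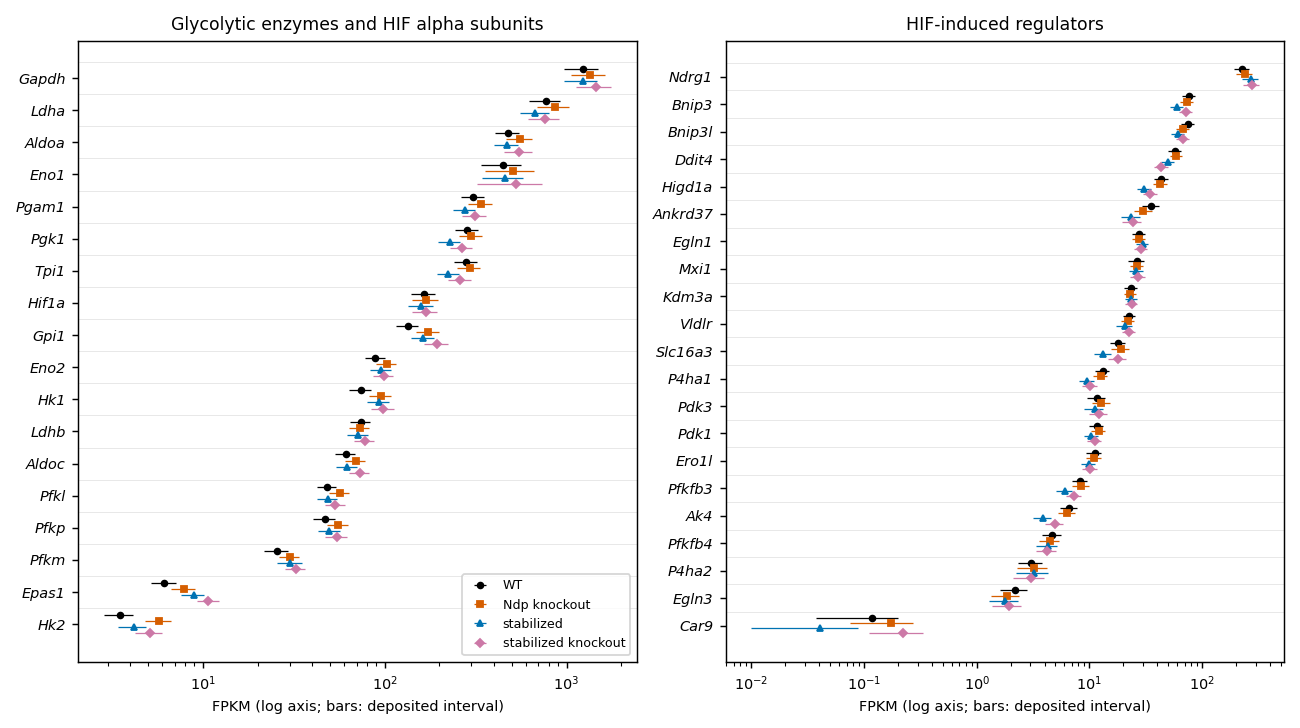
Deposited FPKM (log axis) of the 39 genes found, enzymes and alpha subunits at left and HIF-induced genes at right, each in order of the WT level, with a marker per library and bars for the deposited interval. Gapdh is highest at 1231 FPKM in WT and Car9 lowest, with its lower bound of 0 in the stabilized library drawn at the edge of the axis.

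The knockout against WT, and the stabilized knockout against the stabilized library, both ask what the loss of Ndp did, and share no library. Each also sets a pool with male expression against one with female expression, so their agreement does not separate Ndp loss from sex. Glycolytic enzymes were slightly higher without Ndp: 15 of 16 had log2 ratios above 0 in both pairs. Their FPKM summed to 4352, 4870, 4177 and 4809. Among all genes tested 28.4% were above 0 in both pairs, and 25.6% after each ratio was centred on the median of all genes, where 16 of the 16 enzymes were above 0. The exception was Ldhb, at -0.02 and 0.12. The median enzyme was at 0.20 in the knockout against WT, where all genes had a median of -0.02. In the other pair it was at 0.19, and all genes were at 0.04. Of the 16 enzymes 9 had their highest level in the knockout and 7 in the stabilized knockout, while 9 had their lowest in WT and 7 in the stabilized library. For 15 of them, a highest level in a knockout and a lowest in an Ndp-intact library follow from the signs. The shares of all genes were not counted. All 16 were read from the same 4 libraries and are not separate observations.

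Few of these differences were large. In the knockout against WT 3 enzymes were called higher, Hk2 (0.64), Gpi1 (0.37) and Hk1 (0.36), where 2.74% of all genes were. None was called lower, against 3.29% of genes. Hk2 alone passed 1.5-fold, as did 0.966% of genes, and it alone had intervals apart. In the stabilized knockout against the stabilized library no enzyme was called, where 3.38% of genes were higher and 2.00% lower, and Hk2 was at 0.27, Gpi1 at 0.25 and Gapdh at 0.24. No listed gene was called higher in both pairs, as 0.616% of genes were, and none was lower in both, as 0.532% were. Of the 12 lists of cell markers, 6 had medians above 0 in both of these pairs: rods (0.15 and 0.09), Muller glia (0.08 and 0.13), ganglion cells (0.28 and 0.05), astrocytes (0.23 and 0.33), endothelial cells (0.04 and 0.07) and the 1 lens gene tested (0.19 and 0.76). Above 0 in both pairs were 8 of 12 rod, 7 of 10 Muller glia, 6 of 10 ganglion cell, 4 of 4 astrocyte and 5 of 12 endothelial markers. Medians below 0 in the knockout against WT were those of cones (-0.02), bipolar cells (-0.07), amacrine and horizontal cells (-0.01), microglia (-0.16) and erythroid cells (-0.27). Their values in the other pair were 0.05, 0.01, -0.00, 0.09 and -0.05, and pigment epithelium was at 0.10 and -0.42. The part of these cells in the enzyme values was not tested.

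**Figure D2:**
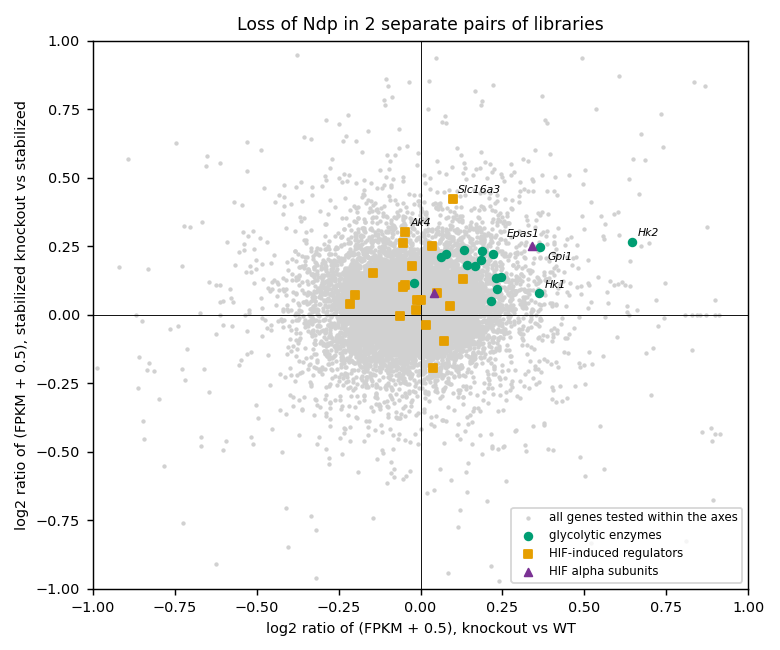
Log2 ratios for the loss of Ndp in the pair with unmodified beta-catenin (x axis) and in the pair with stabilized beta-catenin (y axis), with grey points for the genes tested that lie within the axes. The glycolytic enzymes (circles) lie in the upper right quadrant apart from Ldhb, and Hk2 lies farthest right at 0.64. Sex differs together with Ndp genotype on both axes.

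HIF-induced genes were near the median of all genes when Ndp was lost. Their own median was -0.01 in the knockout against WT and 0.07 in the other pair, with 0 of 20 genes called in the former, where 2.74% of all genes were called higher and 3.29% lower. Ankrd37 (-0.21), Egln3 (-0.20) and Pdk3 (0.13) marked the ends of the range in the knockout against WT. Above 0 in both pairs were 6 of 20 genes, namely Pfkfb3, Slc16a3, Pdk1, Pdk3, Ndrg1 and Mxi1, beside the 28.4% of all genes. Below 0 in both was Pfkfb4, at -0.06 and -0.00, where 21.4% of all genes were. Slc16a3, which exports lactate, was the 1 gene called higher in the stabilized knockout than in the stabilized library (0.42), with overlapping intervals, and 1 of 20 is near the 3.38% of all genes.

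The stabilized library against WT, and the stabilized knockout against the knockout, ask what stabilizing beta-catenin in endothelial cells did, and again share no library with each other, though both contrasts use the same 4 libraries. HIF-induced genes were mostly lower with stabilization, each by a modest amount. Their summed FPKM, over all 21 in the table, differed little, at 701, 703, 667 and 702. As a share of the library the sum was 0.166%, 0.168%, 0.165% and 0.164%. In the stabilized library 7 of 20 were called lower, where 8.53% of all genes were, and none was called higher, where 6.27% were. In the stabilized knockout 2 of 20 were lower, against 3.25% of genes, and none was higher, against 5.70%. Of the 20, 14 had their lowest level in the stabilized library, and the share of all genes lowest there was not counted. That library also had the lowest estimated depth, and the part of depth was not tested. The median gene was at -0.18 and -0.08, beside -0.02 and 0.03 for all genes. Below 0 in both pairs were 12 of 20, against 30.4% of all genes, and 3 of 20 were above 0 in both, against 35.9%. Centred on the median of all genes, 14 of 20 were below 0 in both, beside 34.3% of genes. With FPKM rescaled to the same total the split in the stabilized library was 1 higher and 6 lower. Of all 13150 genes, 1244 were higher and 732 lower at that setting.

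Among the mitochondrial genes, Ak4 (chromosome 4, 101419277 to 101466995), an adenylate kinase of the mitochondrial matrix, was at 6.62 (5.44 to 7.79), 6.39 (5.26 to 7.52), 3.89 (3.17 to 4.61) and 4.91 (4.03 to 5.80) FPKM. Both stabilized libraries were low and both others high, at log2 ratios of -0.70 and -0.35. It was the 1 listed gene 1.5-fold lower in the stabilized library, where 1.71% of genes were, and the 1 HIF-induced gene called lower in both pairs, where 1.41% of genes were. Its interval was apart from that of WT in the stabilized library and overlapped that of the knockout in the stabilized knockout. Higd1a (chromosome 9, 121848563 to 121858362), a protein of the inner mitochondrial membrane, was at 43.5 (37.6 to 49.4), 42.7 (36.9 to 48.5), 30.7 (26.3 to 35.2) and 34.8 (29.9 to 39.7) FPKM, with ratios of -0.49 and -0.29. The mitophagy receptor Bnip3 was at 76.1, 73.2, 60.2 and 72.2 FPKM. Its relative Bnip3l was at 74.5, 67.3, 60.9 and 67.7 FPKM. Both were low in the stabilized library (-0.33 and -0.29) and differed little between the knockouts (-0.02 and 0.01). Pdk1 and Pdk3, kinases that switch off pyruvate dehydrogenase, were at 11.6, 12.1, 10.4 and 11.1 FPKM and at 11.7, 12.8, 11.1 and 12.2 FPKM. Their ratios with stabilization lay between -0.15 and -0.07.

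Among genes acting on glycolysis and its product, Pfkfb3, which makes the allosteric activator of phosphofructokinase, was at 8.29 (7.01 to 9.56), 8.50 (7.07 to 9.93), 6.04 (5.06 to 7.03) and 7.28 (6.14 to 8.41) FPKM. Pfkfb4, of the same family, was at 4.67, 4.45, 4.25 and 4.23 FPKM. Slc16a3 was at 17.8 (15.2 to 20.5), 19.1 (15.7 to 22.5), 13.2 (10.9 to 15.4) and 17.8 (14.6 to 21.1) FPKM. Pfkfb3 and Slc16a3 were lowest in the stabilized library (-0.43 and -0.42) and closer to the knockout in the stabilized knockout (-0.21 and -0.10).

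Of genes of protein folding and matrix, P4ha1 (chromosome 10, 59323296 to 59373304), a catalytic subunit of collagen prolyl hydroxylase, was at 13.1 (11.2 to 14.9), 12.6 (10.8 to 14.4), 9.45 (8.01 to 10.9) and 10.2 (8.65 to 11.7) FPKM. Its ratios were -0.45, with intervals apart, and -0.29. P4ha2, another such subunit, was at 3.05, 3.23, 3.25 and 3.01 FPKM, level throughout. The oxidoreductase Ero1l, which helps form disulfide bonds, was at 11.1, 11.0, 9.84 and 10.2 FPKM.

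Ankrd37 (chromosome 8, 45996902 to 46005707), an ankyrin repeat protein, was at 35.1 (29.2 to 41.1), 30.2 (24.8 to 35.6), 23.5 (up to 28.0) and 24.2 (up to 28.8) FPKM. It was low in both stabilized libraries, at -0.57 with intervals apart and -0.31 with overlapping ones. Ddit4, an inhibitor of mTOR signalling, was at 57.6 (50.1 to 65.1), 59.1 (51.4 to 66.9), 49.9 (43.2 to 56.5) and 43.5 (37.6 to 49.4) FPKM. It had the lowest ratio in the stabilized knockout against the knockout (-0.44, intervals apart) and -0.21 in the other pair. Ak4 and Ddit4 were thus the 2 genes called lower in that comparison.

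Other HIF-induced genes, apart from Egln3 and Car9, were level or went the other way. Ndrg1, a stress-responsive gene with the highest level of this group, was at 225 (190 to 259), 239 (201 to 277), 269 (225 to 313) and 275 (230 to 320) FPKM, with ratios of 0.26 and 0.20. The oxygen-sensing prolyl hydroxylase Egln1 was at 27.3, 27.6, 29.6 and 28.8 FPKM, and Egln3 at 2.20, 1.85, 1.80 and 1.92 FPKM. Egln1 was level. Egln3 was highest in WT, with ratios of -0.23 and 0.04 with stabilization. Kdm3a, a histone demethylase, was at 23.4, 23.1, 23.4 and 23.7 FPKM. The Myc antagonist Mxi1 was at 26.4, 26.4, 26.0 and 27.0 FPKM. Vldlr, a lipoprotein receptor, was at 22.6, 21.9, 20.7 and 22.3 FPKM. These last 3 genes stayed within 0.13 of 0 in all 5 comparisons. Car9, a carbonic anhydrase at the cell surface, was at 0.118, 0.175, 0.0404 and 0.221 FPKM and below the filter. Its interval in the stabilized library (up to 0.0885) was apart from that in the stabilized knockout (0.11 to 0.333) and overlapped that of WT. Of the 12 genes below 0 in both pairs 9 held ACGTG in the promoter window, and of the 6 other tested genes with a window 3 did.

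Glycolytic enzymes had no shared direction with stabilization: medians were 0.02 with Ndp intact and -0.02 without it. Of 16, 5 were above 0 in both pairs (Hk1, Gpi1, Pfkm, Aldoc and Eno1) and 5 below (Tpi1, Pgk1, Pgam1, Ldha and Aldoa). In the stabilized library Hk1 was called higher (0.32) and Tpi1 called lower (-0.32), where 825 and 1122 of all genes were. The split of 1 to 1 became 1 to 0 after centring, where 943 of all genes were higher and 958 lower. It became 2 to 0 with FPKM rescaled to the same total, where 1244 were higher and 732 lower. Pgk1 (-0.31 and -0.17) and Ldha (-0.19 and -0.18) were lower in value in both pairs, with overlapping intervals. No enzyme was called in the stabilized knockout against the knockout.

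**Figure D3:**
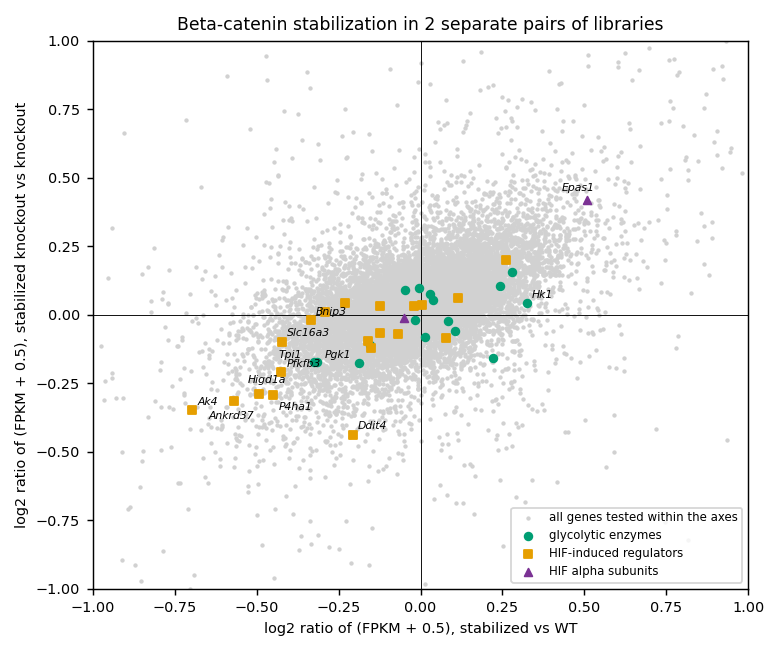
Log2 ratios for stabilization of beta-catenin with Ndp intact (x axis) and without Ndp (y axis), with grey points for the genes tested that lie within the axes. HIF-induced genes (squares) lie mainly to the lower left, with Ak4 at -0.70 and -0.35, and Epas1 lies to the upper right.

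Endothelial marker RNA was higher in both stabilized libraries. The 16 endothelial markers summed to 71.1, 65.6, 113 and 112 FPKM, with none listed at 0. Of the 12 tested 9 were called higher in both pairs, where 2.38% of all genes were, and 1, Emcn, was below 0 in both (-0.36 and -0.30). The 6 erythroid genes in the table summed to 69.8, 75.6, 164 and 176 FPKM. Muller glia markers had medians of -0.10 and -0.07, rods -0.04 and -0.13 and cones -0.27 and -0.06 in the pairs of stabilization. Other lists went the other way or were mixed: ganglion cells were at 0.44 and 0.14, astrocytes at 0.52 and 0.39, and amacrine and horizontal cells at 0.12 and 0.14. Bipolar cells were at 0.01 and 0.07, microglia at 0.01 and 0.16, pigment epithelium at 0.59 and -0.12, and the lens gene at -0.57 and 0.00. Above 0 in both were 8 of 10 ganglion cell, 3 of 4 astrocyte and 6 of 8 amacrine and horizontal cell markers. Below 0 in both were 5 of 10 Muller glia, 6 of 12 rod and 6 of 10 cone markers. Called lower in both were 2 of 10 Muller glia (Aqp4 and Glul), 1 of 12 rod (Rcvrn) and 2 of 10 cone markers (Opn1mw and Pde6h), where 1.41% of all genes were. Called higher in both were 2 of 4 astrocyte, 1 of 10 ganglion cell and 1 of 6 microglia markers and 4 of 4 erythroid genes tested, where 2.38% were. The part of these shifts in the HIF-induced values was not tested.

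The alpha subunit genes had different patterns. Hif1a (chromosome 12, 73901375 to 73947530) was level, at 165 (139 to 190), 169 (142 to 196), 159 (134 to 184) and 168 (141 to 195) FPKM, with ratios between -0.05 and 0.08 in all 5 comparisons. HIF alpha is controlled mainly at the protein, which was not measured. Epas1 (chromosome 17, 86753700 to 86833410), the alpha subunit prominent in endothelial cells, was at 6.13 (5.16 to 7.10), 7.89 (6.71 to 9.06), 8.93 (7.63 to 10.2) and 10.7 (9.24 to 12.2) FPKM. It was lowest in WT and highest in the stabilized knockout. Its ratios with stabilization were 0.51 and 0.42, each with intervals apart, and 2.38% of all genes were called higher in both pairs. With loss of Ndp they were 0.34, which was called, and 0.25, with overlapping intervals. In the stabilized knockout against WT the ratio was 0.76, past 1.5-fold and with intervals apart. The level of Hif1a was 26.9 times that of Epas1 in WT and 15.7 times in the stabilized knockout. Like the endothelial markers, Epas1 was higher in both stabilized libraries, and their part in its value was not tested. Epas1 was also higher in the knockout than in WT. The endothelial sum was 65.6 against 71.1 FPKM there, with Cldn5 alone at 0.675 against 6.91 FPKM. The median endothelial marker was at 0.04 in that comparison, with 7 above 0 and 5 below.

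The stabilized knockout against WT sets both changes against neither, and shares its libraries with the comparisons above. The median enzyme was at 0.21 and the median HIF-induced gene at -0.09, beside 0.01 for all genes. Above 0 were 13 of 16 enzymes and 5 of 20 HIF-induced genes, and the share of all genes above 0 was not counted here. In all, 4 enzymes were called higher, where 6.57% of genes were: Gpi1 (0.52), Hk2 (0.49), Hk1 (0.40) and Pfkm (0.34). Gpi1 and Hk2 had intervals apart from WT. In turn, 4 HIF-induced genes were called lower, where 4.32% of genes were: Ankrd37 (-0.53), Ddit4 (-0.40), Ak4 (-0.39) and P4ha1 (-0.35). Ankrd37 and Ddit4 had intervals apart.

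**Figure D4:**
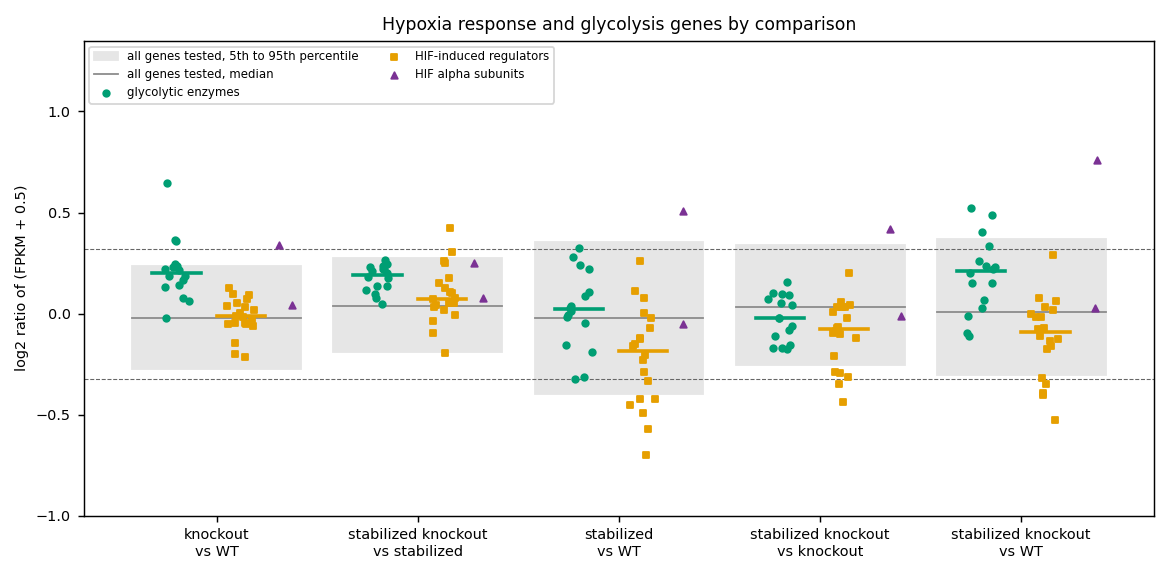
Log2 ratios of each listed gene past the filter in the 5 comparisons, with coloured bars for list medians, grey boxes for the 5th to 95th percentile of all genes tested and dashed lines at the call of 0.32. Enzymes sit above the median of all genes with loss of Ndp (list medians of 0.20 and 0.19) and HIF-induced genes below it with stabilization (-0.18 and -0.08).

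The difference between the effects of stabilization without and with Ndp was 0.11 at the median for HIF-induced genes and 0.00 for enzymes, beside 0.06 for all genes. Among the listed genes it was largest for Ak4 (0.35), Slc16a3 (0.33) and Hk2 (-0.38). These are values of 4 single libraries, and the difference was not tested.

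Other lists of the pathway give the setting. Of 28 further HIF targets tested, 1 was called lower and 3 higher in both pairs of stabilization, where 1.41% and 2.38% of all genes were. The lower gene was Ppp1r3c, which promotes glycogen synthesis, at 5.31, 5.38, 3.52 and 4.02 FPKM. The higher ones were Hmox1, Cxcr4 and Igfbp3. Hmox1, haem oxygenase, was at 2.51 (1.79 to 3.23), 4.67 (3.50 to 5.84), 4.14 (3.06 to 5.22) and 9.52 (7.60 to 11.4) FPKM, and was the 1 further target called higher in both pairs of Ndp loss, where 0.616% of all genes were. The chemokine receptor Cxcr4 was at 7.36, 5.18 and 9.70 FPKM in WT, knockout and stabilized knockout, and highest in the stabilized library, at a log2 ratio of 0.42 over WT. Igfbp3, which binds insulin-like growth factors, was at 1.96, 4.00, 4.05 and 5.18 FPKM. Hmox1 is induced by haem too, and was highest in the library with the highest erythroid sum, the stabilized knockout. It was at 4.67 FPKM in the knockout and 4.14 in the stabilized library, where the erythroid sums were 75.6 and 164 FPKM. The part of haem was not tested.

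Vegfa, the main vessel growth factor, was at 107 (91.7 to 123), 116 (100 to 131), 87.0 (75.6 to 98.4) and 90.8 (78.6 to 103) FPKM, low in both stabilized libraries with overlapping intervals. Its ratios with stabilization were -0.30 and -0.35, of which the latter was called. Adm, a vasodilator peptide, was at 2.01, 3.32, 1.52 and 1.68 FPKM, highest in the knockout. With loss of Ndp its ratios were 0.60, past 1.5-fold, and 0.11, both with overlapping intervals. With stabilization they were -0.31 with overlapping intervals and -0.81, called lower with intervals apart. The glucose transporter Slc2a1 was at 79.9, 92.6, 77.1 and 94.5 FPKM, and like Gapdh was higher in both knockouts than in both Ndp-intact libraries.

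The machinery that senses oxygen and partners HIF alpha (12 genes tested, among them Vhl, Arnt and Egln2) had medians of -0.02 and 0.07 with stabilization and -0.07 and 0.01 with loss of Ndp. Of these 12, only the beta subunit gene Arnt2 was called higher in both pairs of stabilization (0.42 and 0.46), where 2.38% of all genes were; it was singled out after its values were seen. Of the pentose phosphate pathway, which branches from glycolysis, 1 of 8 genes, H6pd, was called lower in both pairs of Ndp loss, where 0.532% of all genes were, at 2.91, 2.15, 3.59 and 2.73 FPKM. Of 14 genes of pyruvate and lactate handling and of 10 other glycolytic isoforms none was called in the same direction in both pairs of either contrast. The 10 isoforms, which include Eno3, Pgam2 and Pfkfb2, had medians of -0.06 in the knockout against WT and 0.07 in the other pair, beside 0.20 and 0.19 for the main enzymes.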

How the data were processed

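Whole-retina RNA of 4 pooled libraries was analysed from 1 table. The authors deposited FPKM with a lower and an upper bound per gene and library, made with TopHat and Cuffdiff on mm10, per the submitters' processing notes. The sources used here do not give versions, gene annotation, strand, read totals or the level of the bounds. Columns were assigned by the number shared with a sample's description.

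Log2 ratios used FPKM plus 0.5, with a mean of at least 1 FPKM and status OK in every library; 145 genes lacked that status. Each comparison sets 1 library against 1, so counts and medians stand beside those of all 13150 genes tested. Intervals and ratios describe estimates within libraries only. Ratios were computed with pandas 2.3.3 and numpy 2.4.6 under Python 3.11.15, trends were fitted with statsmodels 0.14.6, plots were drawn with matplotlib 3.10.9, and the ratio procedure was tested on simulated data. Coordinates came from GENCODE M21 (mm10) and promoter windows from RefSeq. Relative depth was read from the commonest value of the squared ratio of value to SD among low genes, with the upper bound taken as 2 SD away, and is approximate.

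The members, lists and rule for named genes were chosen with earlier results of these data known. The rule gives all members, up to 3 genes per direction from other pathway lists that were called in both pairs of a contrast, Vegfa, Adm and Slc2a1, and label checks. Of the promoter windows printed only that of Ak4 follows that rule.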

Additional observations from a re-analysis of the deposited data

How the results depend on the processing

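Medians of both lists moved by less than 0.1 on the log2 scale under the alternatives tried, and no called ratio of a single gene reversed. Every single-gene ratio stayed within the error of its deposited interval. That outcome was largely fixed in advance, since re-centring moved ratios by at most 0.04, which is small beside the intervals. The alternatives were pseudocounts of 0.1 and 1 and a minimum mean of 5 FPKM or none. Others were a shift to a median of 0 over all genes (re-centring), a common FPKM total (rescaling) and leaving out the farthest member. Chosen after seeing the data were removing a trend on length and GC content, leaving out X and Y and adding Pkm. Adding Pkm or leaving out X and Y moved no count by over 1.5 times. The count of enzymes above 0 in both pairs of Ndp loss was 14 to 16, and that of HIF-induced genes below 0 in both pairs of stabilization 11 to 14. Counts at a threshold were less stable, and the cause was not tested unless the setting is itself a stricter call. At 1.5-fold, enzymes higher numbered 1 in the knockout, 0 in the stabilized library (with 0 lower) and 0 in the stabilized knockout against WT. HIF-induced genes lower then numbered 1 in the stabilized library, 0 in the stabilized knockout against WT, 0 against the knockout and 0 in both pairs, and 0 were higher against the stabilized library. With intervals apart as the call, these were 1, 0 (0 lower) and 2 enzymes, and 4, 2, 1, 0 and 0 HIF-induced genes. The share of all genes with intervals apart was not counted, so these counts have no background. HIF-induced genes lower in both pairs of stabilization numbered 4 after re-centring, 3 after rescaling, 3 after the length and GC correction and 0 with a pseudocount of 1. In the stabilized knockout against the knockout they numbered 5, 4, 4 and 1, and 1 without the farthest member. Of all 13150 genes, 427 were lower there at the main setting, 518 after re-centring and 502 after rescaling. For the counts in both pairs the share of all genes at these other settings was not counted. In the stabilized library, 0 enzymes were lower after re-centring, rescaling or the correction. Enzymes higher there numbered 2 after rescaling and 0 with a pseudocount of 1, after the correction or without the farthest member, and 1 HIF-induced gene was higher after rescaling. In the stabilized knockout against WT, 2 enzymes were higher after the correction. HIF-induced genes higher against the stabilized library numbered 2 with a pseudocount of 0.1 or no minimum, which adds Car9 in the latter, and 0 without the farthest member. Below 0 in both pairs of Ndp loss were 0 with a minimum of 5 FPKM, 2 after rescaling and 3 after the correction, and above 0 in both pairs of stabilization 1 after the correction. Among all genes, the share of calls that were higher moved under rescaling from 42.4% to 63.0% in the stabilized library against WT and from 62.9% to 43.9% in the stabilized knockout against the stabilized library, and under re-centring from 63.7% to 53.2% in the stabilized knockout against the knockout. No paired analysis was possible because each genotype has 1 library, so the groups share fewer than 2 replicate numbers, and the 2 pairs of each contrast are given side by side. Leaving out a library leaves the pair without it, which is given. Depth was lowest in the stabilized library, where most HIF-induced values were lowest, and its part was not tested.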
